A study of Mus musculus with 2 samples.

Results

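Dentate granule nuclei were taken from single-nucleus RNA sequencing of the mouse hippocampus. They were chosen by their own read-out, as nuclei with excitatory transcripts and at least 8 unique molecular identifiers (UMIs) of *Prox1*, *Trpc6*, *Dsp* and *C1ql2* together per 10000 UMIs. The rule kept 437 nuclei in PS19 and 220 nuclei in PZKO, 657 of the 22389 barcodes in both libraries. PS19 mice carry a mutant human tau transgene driven by the mouse prion promoter, and both groups carry it. PS19 denotes transgenic mice with intact *Zbp1* (PS19 Zbp1-WT), and PZKO denotes transgenic mice that lack *Zbp1* (PS19 Zbp1-KO), so every nucleus analysed here comes from a tau transgenic animal and no mice without the transgene enter. All mice were males aged 9 months. Each genotype is 1 library made from pooled hippocampi of 5 males, and the counts carry no label for the animal. No test between genotypes was therefore made, and each interval below is a 95% interval that covers counting error only.

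Granule cells are the principal neurons of the dentate gyrus. They receive the perforant path from the entorhinal cortex, fire sparsely, and send mossy fibres to CA3 pyramidal cells and to hilar mossy cells. Their identity in the adult is held by the transcription factor *Prox1*. ZBP1 is an innate immune sensor of Z-form nucleic acids that is induced by interferon and can start necroptosis.

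The PS19 library held 116488513 UMIs and the PZKO library 171167884 UMIs. Granule nuclei held 6606675 of these in PS19 and 4555249 in PZKO, with a median of 14417 UMIs and 4372 genes per nucleus in PS19 and of 19388.5 UMIs and 4948 genes in PZKO. The middle range from the first to the third quartile was 10952 to 17988 UMIs in PS19 and 14774.8 to 25616.5 in PZKO, so PZKO granule nuclei were sampled more deeply. The median mitochondrial share was 0.366% in PS19 and 0.216% in PZKO. The libraries shared 47 barcode sequences, and no granule nucleus carried one of them.

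Besides the 4 granule genes, the rule asked for at least 3000 UMIs, at most 5% mitochondrial UMIs and at least 3 UMIs of *Slc17a7*, *Camk2a*, *Neurod2* and *Neurod6*, and it allowed under 3 per 10000 UMIs of *Gad1* with *Gad2*, under 5 of *St18* with *Prr5l* and under 10 of *Foxp2* with *Tshz2*. Nuclei with the excitatory genes that met the bounds on *Gad1* with *Gad2* and on *St18* with *Prr5l* are called excitatory nuclei. Of the 8164 PS19 and 8679 PZKO barcodes inside the depth and mitochondrial bounds, 607 and 400 reached the granule sum. The bound on *St18* and *Prr5l*, which are genes of oligodendrocytes, alone removed 50 PS19 and 36 PZKO nuclei. Levels are given in CPM, the UMIs of a gene per 1000000 UMIs of a class of nuclei in 1 library. The removed nuclei held *Cdh9* at 591 and 613 CPM, close to the level in granule nuclei, together with *Mog* at 73.4 and 104 CPM against 3.03 and 1.76 in the nuclei kept. *St18* itself stood at 163 and 175 CPM in granule nuclei and at 9.28 and 9.55 in CA1-like nuclei.

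The threshold on the granule sum did not fall in a gap. Just inside it, at a sum of 8 to 9, lay 100 PS19 and 52 PZKO nuclei, and just outside it, at 7 to 8, lay 107 and 58. A sum over other granule cell genes that the rule did not use had a median of 67.9 per 10000 UMIs in PS19 and 66.4 in PZKO just inside, and of 71.4 and 71.5 just outside. A further 522 PS19 and 287 PZKO excitatory nuclei had a granule sum of 2 to 8 and at least 30 per 10000 of these other genes. Nuclei with both sets of genes thus extended below the threshold. The bound of 30 is not particular to granule cells. Oligodendrocyte nuclei (defined below), which are not among the excitatory nuclei, had a median of 31.1 in PS19 and 36.0 in PZKO. How many of the further nuclei are granule cells was not tested. In the other direction, 6 PS19 and 9 PZKO members stayed under 30.

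Markers outside the rule carried the label in both libraries. *Cdh9*, a classical cadherin of granule cells (chr15:16728756-16857094), stood at 674 CPM in PS19 and 634 in PZKO granule nuclei, and at 44.7 and 48.9 in CA1-like nuclei. CA1-like nuclei are excitatory nuclei below the granule threshold with at least 3 per 10000 UMIs of the pyramidal genes *Mpped1*, *Fibcd1*, *Wfs1*, *Man1a* and *Spink8*, 773 in PS19 and 1029 in PZKO. *Glis3*, a zinc finger transcription factor, stood at 597 and 640 CPM against 35.4 and 27.4 in CA1-like nuclei. *Dock10*, a guanine nucleotide exchange factor, stood at 990 and 1060 against 45.7 and 46.0. *Stxbp6*, a SNARE-binding protein, stood at 705 and 801 against 32.4 and 36.0. All 4 genes were thus over 10 times more abundant in granule than in CA1-like nuclei of the same library.

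Less abundant granule cell genes had the same order. *Smoc2*, a secreted matrix protein, stood at 146 and 156 CPM against 3.78 and 4.24 in CA1-like nuclei, and *Calb1*, the calcium buffer calbindin, at 133 and 121 against 28.0 and 25.4. *Tdo2*, a tryptophan-catabolic enzyme of mature granule cells, was rare at 10.4 and 9.22 CPM. *Pdzph1* had 0 UMIs in PS19 and 1 UMI in PZKO and could not be read at this depth. The pyramidal gene *Man1a* stood at 7.57 and 9.00 CPM in granule nuclei. No level of it in CA1-like nuclei is set beside these, since it helped to choose them. *Adarb2*, fixed as a marker of inhibitory neurons, went against the label with 1704 and 1741 CPM, while *Slc32a1*, the vesicular GABA transporter, stood at 6.36 and 4.17.

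**Figure D1:**
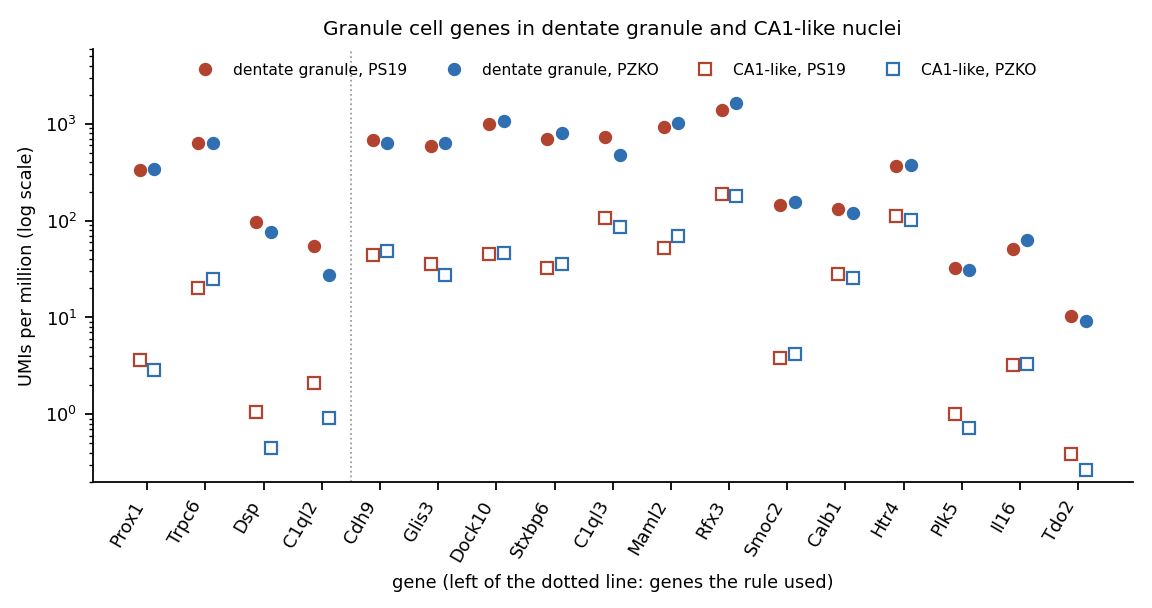
Levels of granule cell genes, in CPM on a log axis, in summed dentate granule nuclei (filled circles) and CA1-like nuclei (open squares) of PS19 (red) and PZKO (blue), with 1 library per genotype and no error bars. Each gene sits higher in granule than in CA1-like nuclei, as the genes of the rule had to, and *C1ql2* and *C1ql3* are the granule genes with a visible gap between the genotypes.

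The 4 genes of the rule are given as a description. *Prox1* (chr1:190118035-190170714) stood at 337 CPM in PS19 and 342 in PZKO, and *Trpc6*, a cation channel subunit (chr9:8544142-8680741), at 630 and 627. *Dsp*, which encodes desmoplakin (chr13:38151294-38198577), stood at 97.3 and 76.6, and *C1ql2*, a secreted C1q-like protein of mossy fibre synapses (chr1:120340582-120343174), at 54.8 and 27.7. Because the rule summed these genes, *Trpc6* and *Prox1* supplied most of what let a nucleus pass. After every nucleus was thinned to 3000 UMIs, *Trpc6* was seen in 81.5% of PS19 and 79.1% of PZKO granule nuclei, *Cdh9* in 79.9% and 75.9%, and *Prox1* in 64.3% and 56.4%. *C1ql2* was seen in only 16.7% and 8.64%. In PS19 CA1-like nuclei the same thinning gave 4.14% for *Trpc6*, 10.2% for *Cdh9* and 1.55% for *Prox1*.

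Granule nuclei were set beside the other excitatory nuclei of the same library as a description, since the rule chose them by their transcripts. Of 12920 genes counted, 382 were at least 2-fold higher and 1260 at least 2-fold lower in granule nuclei in both libraries. Ranked by the smaller of the log2 ratios of the libraries, high genes beyond the rule's own included *Emp2*, a membrane protein (log2 ratio over other excitatory nuclei 2.58 in PS19 and 2.94 in PZKO), *Plk5*, a polo-like kinase family member (2.56 and 3.18), and *Onecut1*, a homeobox factor (2.52 and 3.42). The lowest was *Vwc2l*, a secreted von Willebrand domain protein, which had 2 UMIs in PS19 against 8 in PZKO granule nuclei (-8.66 and -6.44). The other excitatory nuclei include the 522 PS19 and 287 PZKO nuclei described above, whose part in these ratios was not tested. Against CA1-like nuclei, whose median sum of other granule genes was 5.48 in PS19 and 5.26 in PZKO, the comparison gave 407 genes at least 2-fold higher and 712 at least 2-fold lower among 9912.

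Granule nuclei made up a larger share of the PS19 library than of the PZKO library. They were 13.6% (12.5 to 14.9) of 3205 excitatory nuclei in PS19 and 6.09% (5.34 to 6.92) of 3610 in PZKO. Of all barcodes inside the depth and mitochondrial bounds they were 5.35% (4.87 to 5.86) and 2.53% (2.21 to 2.89). The PS19 share was 2.24 times the PZKO share among excitatory nuclei and 2.11 times among all barcodes. The intervals did not overlap, but they are exact binomial intervals over nuclei of 1 pool each and say nothing about the spread between mice.

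The order held for looser and stricter cuts. With the sum over 4 genes lowered to 2 and at least 30 per 10000 UMIs of other granule genes asked for, 953 PS19 and 498 PZKO nuclei were counted, 29.7% and 13.8% of excitatory nuclei. As oligodendrocyte nuclei also reach that bound of 30, this wider set may hold nuclei that are not granule cells. With all nuclei thinned to 3000 UMIs before the rule was applied, 294 and 145 nuclei passed, 14.5% and 6.72%. Over 10 alternative settings the PS19 share was 2.09 to 2.61 times the PZKO share of excitatory nuclei. CA1-like nuclei had the opposite order, with 24.1% (22.65 to 25.64) of excitatory nuclei in PS19 and 28.5% (27.04 to 30.01) in PZKO. Granule nuclei are part of that denominator, so a larger granule share lowers the CA1-like share by construction. The opposite order is therefore not a separate observation. Excitatory nuclei as a whole were 39.3% and 41.6% of barcodes and oligodendrocyte nuclei 20.03% and 19.84%. The tissue was micro-dissected from a single hemisphere of each brain, and a difference in how much dentate gyrus was taken and a difference between genotypes cannot be told apart.

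**Figure D2:**
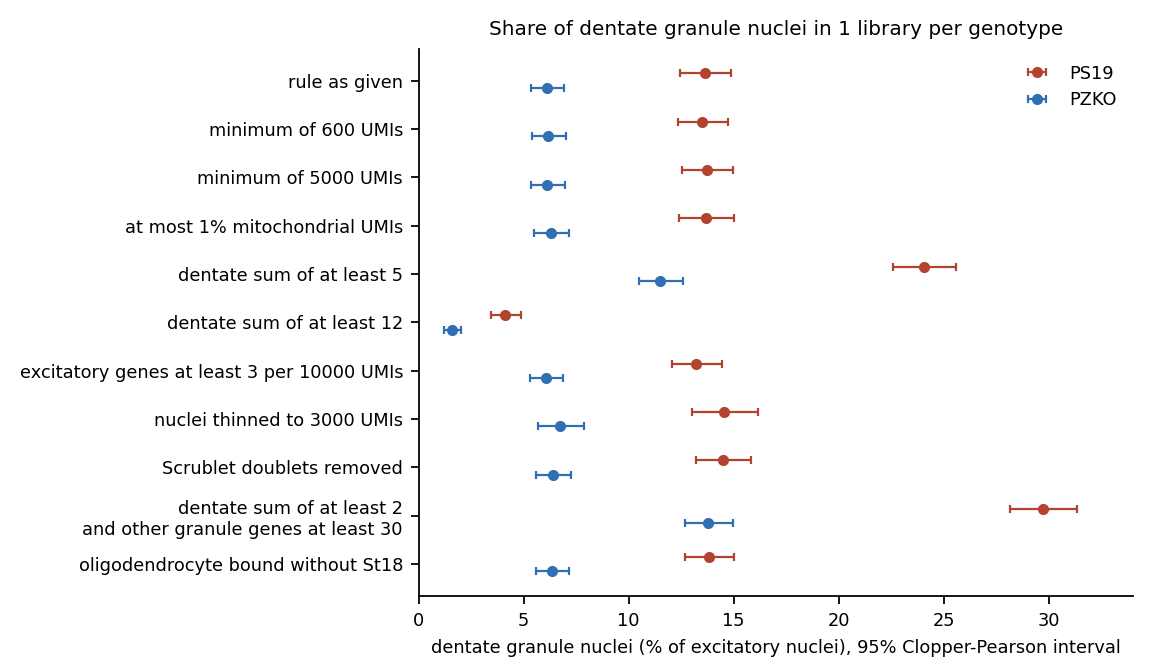
Dentate granule nuclei as a percentage of excitatory nuclei in PS19 (red) and PZKO (blue) under the rule as given and under 10 other settings, with exact 95% binomial intervals over nuclei of 1 library each. The PS19 point lies to the right of the PZKO point in every line, from 4.12% against 1.58% at a granule sum of at least 12 to 29.7% against 13.8% in the widest set.

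*Zbp1* was at the floor in granule nuclei of either genotype. No UMI of it was seen in PS19 (0 of 6606675), where 3 UMIs would be 0.454 CPM and the exact upper limit is 0.558 CPM, and 1 UMI in PZKO. Over all barcodes its level was 0.996 CPM in PS19, from 116 UMIs, and 0.310 CPM in PZKO, from 53. The assay reads the 3′ end of transcripts from the gene (chr2:173206612-173218923, minus strand), and which part of it the deletion removes is not given in the labels, so whether these counts can check the genotype is not known. The necroptosis kinase gene *Ripk3* and its target *Mlkl* each had 1 UMI in PS19 and 0 UMIs in PZKO granule nuclei, and none of the 9 necroptosis genes reached the minimum for comparison.

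Genes were compared between the libraries where they had at least 200 UMIs over both sets of granule nuclei, which 7025 genes did. Of these, 54 were at least 1.5-fold higher in PZKO (0.769%) and 207 at least 1.5-fold lower (2.95%), and the median log2 ratio of PZKO over PS19 was -0.05. With TMM scaling the counts were 75 and 150. The same genes had a median of -0.03 in CA1-like and of 0.02 in oligodendrocyte nuclei. Most of what was lower in PZKO granule nuclei was lower in CA1-like nuclei too. Of the 207 lower genes 203 had a ratio below 0 in CA1-like nuclei and 44 were at least 1.5-fold lower there, against 57.1% and 0.883% of all 7025 genes. Of the 54 higher genes 49 were above 0 and 4 at least 1.5-fold higher in CA1-like nuclei, against 42.9% and 0.598% of all. In 25 of these 54 genes, more than 25% of the PZKO UMIs came from 5 nuclei, and in 5 of the 207 lower genes more than 25% of the PS19 UMIs did. These counts are not alike, since 5 nuclei are a larger part of the 220 PZKO than of the 437 PS19 nuclei. The share over all 7025 genes is not given here, so no contrast is read from them.

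**Figure D3:**
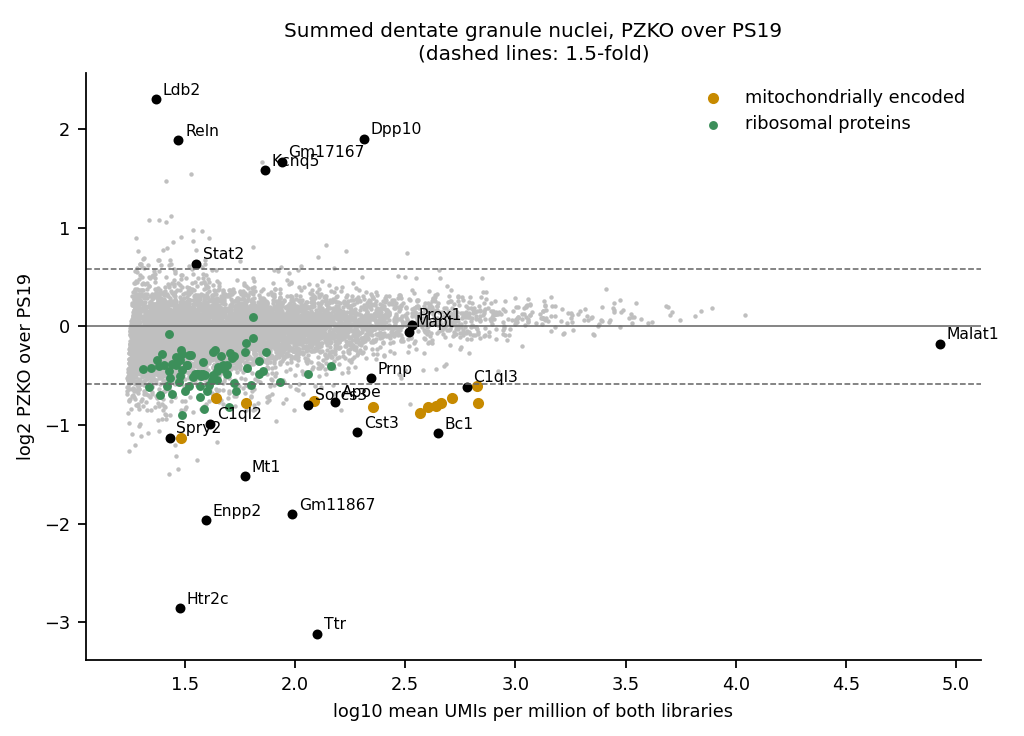
Log2 ratio of PZKO over PS19 against the log10 mean level in CPM for the 7025 genes counted in summed dentate granule nuclei, where each point is 1 gene and the dashed lines mark 1.5-fold. Mitochondrially encoded genes (orange) and most ribosomal protein genes (green) lie below 0, *Ttr* lies lowest at -3.11, and *Mapt* lies near 0, as does *Prox1*, a gene of the rule, whose ratio is partly set by that choice.

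The gene with the lowest ratio was *Ttr*, which encodes transthyretin, a carrier protein made in bulk by the choroid plexus. It had 1494 UMIs in 410 PS19 granule nuclei and 119 UMIs in 90 PZKO granule nuclei, a log2 ratio of -3.11 (-3.40 to -2.84). The ratio was -3.19 in CA1-like and -3.11 in oligodendrocyte nuclei. The summed choroid plexus and ependymal markers stood at 248 CPM in PS19 and 41.3 in PZKO granule nuclei, with *Ttr* the most abundant and 4 of the 9 markers at 0 in PZKO. Further genes among the lowest were *Mt1*, *Dbi*, *Htra1*, *Gfap* and *Cst3*. *Mt1*, a metallothionein, was at -1.52 (-1.80 to -1.25), *Dbi*, an acyl-CoA binding protein, at -1.49, *Htra1*, a serine protease, at -1.44, *Gfap*, the astrocyte intermediate filament, at -1.31 and *Cst3*, cystatin C, at -1.07 (-1.21 to -0.93). Of the other astrocyte markers, *Slc1a2*, a glutamate transporter, was at 0.13 and *Slc1a3* at -0.16. The 5 genes from *Mt1* to *Cst3* were below 0 in CA1-like nuclei as well, from -0.37 for *Gfap* to -1.02 for *Mt1*. Over alternative settings the ratio of *Gfap* in granule nuclei ran from -1.55 to -0.51, and the latter falls short of 1.5-fold.

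*Bc1*, a short brain cytoplasmic RNA that neurons carry into dendrites, was among the abundant low transcripts. It stood at 605 CPM in PS19 and 286 in PZKO, a log2 ratio of -1.08 (-1.17 to -0.99), and 428 of 437 PS19 and 211 of 220 PZKO nuclei held at least 1 UMI. In CA1-like nuclei its ratio was -1.25. The unnamed transcript *Gm11867* had 1010 UMIs in PS19 and 186 in PZKO, at -1.90 against -1.55 in CA1-like nuclei. *Htr2c*, a serotonin receptor, ranked second among the lowest at -2.86, but 97.7% of its 347 PS19 UMIs came from 5 of 437 nuclei. After removal of the nuclei that Scrublet scored highest as doublets its ratio was 1.98, so its direction depended on the nuclei kept.

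Genes higher in PZKO differed in how many granule nuclei held them. *Gm17167*, a transcript without a known product (chr4:42206998-42235313), had 274 UMIs in 78 of 437 PS19 nuclei and 602 UMIs in 178 of 220 PZKO nuclei, a log2 ratio of 1.67 (1.46 to 1.88). It was also higher in CA1-like nuclei, at 1.06, and in oligodendrocyte nuclei, at 1.41. Others had most of their PZKO UMIs in 5 nuclei. *Dpp10*, an auxiliary subunit of A-type potassium channels, had 573 UMIs in PS19 and 1479 in PZKO at 1.90, with 71.9% and 54.2% of them in 5 nuclei. *Ldb2*, a LIM domain binding cofactor, was at 2.30 with 64.4% of its 177 PZKO UMIs in 5 nuclei, and *Kcnq5*, a subunit of M-type potassium channels, at 1.59 with 54.3%. *Reln*, which encodes the matrix protein reelin of Cajal-Retzius cells and some interneurons, had 92.5% of its 212 PZKO UMIs in 5 nuclei, and its ratio of 1.89 became -0.30 after all nuclei were thinned to 3000 UMIs. *Dpp10*, *Ldb2* and *Kcnq5* are abundant in CA1-like nuclei, at 3630 CPM, 383 CPM and 1235 CPM in PS19, and stood at 86.7, 7.87 and 36.3 CPM in PS19 granule nuclei. The part that RNA or nuclei of other types had in these values was not tested.

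Transcripts encoded in mitochondrial DNA were lower in PZKO granule nuclei as a group. All 12 of the 13 genes that were counted lay at least 1.5-fold lower, against 2.95% of all genes, with a median log2 ratio of -0.78. Their summed level was 5049 CPM in PS19 and 2979 in PZKO. *mt-Co1*, a catalytic subunit of cytochrome c oxidase, stood at 809 and 531 CPM, a ratio of -0.61 (-0.68 to -0.54), and *mt-Nd4*, a complex I subunit, at 479 and 261, a ratio of -0.88 (-0.97 to -0.78). The median was -0.58 in CA1-like and -0.90 in oligodendrocyte nuclei, and it was -0.44 among granule nuclei with at most 1% mitochondrial UMIs. Over all barcodes the median mitochondrial share was also lower in PZKO, at 0.379% against 0.579% in PS19, and its part in these values was not tested.

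Nuclear genes of respiration, translation and protein folding had smaller differences in the same direction, to be read against the 2.95% of all genes that were at least 1.5-fold lower. Of the 73 listed subunits of oxidative phosphorylation 52 were counted, with a median of -0.39, and 8 were at least 1.5-fold lower, from *Ndufc2* at -1.01 to *Ndufs4* at 0.16. Of 79 ribosomal protein genes 74 were counted, with a median of -0.44, and 15 were at least 1.5-fold lower, while *Rpl37* was the only one above 0, at 0.10 (-0.12 to 0.32). Of 22 chaperones 16 were counted, with a median of -0.35. The 3 chaperones past 1.5-fold were *Hsp90aa1* (-0.75), *Hspa8* (-0.61) and *Hsp90ab1* (-0.59), cytosolic members of the HSP90 and HSP70 families. In CA1-like nuclei the medians of these lists were -0.30, -0.29 and -0.27, and in oligodendrocyte nuclei -0.53, -0.51 and -0.49.

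**Figure D4:**
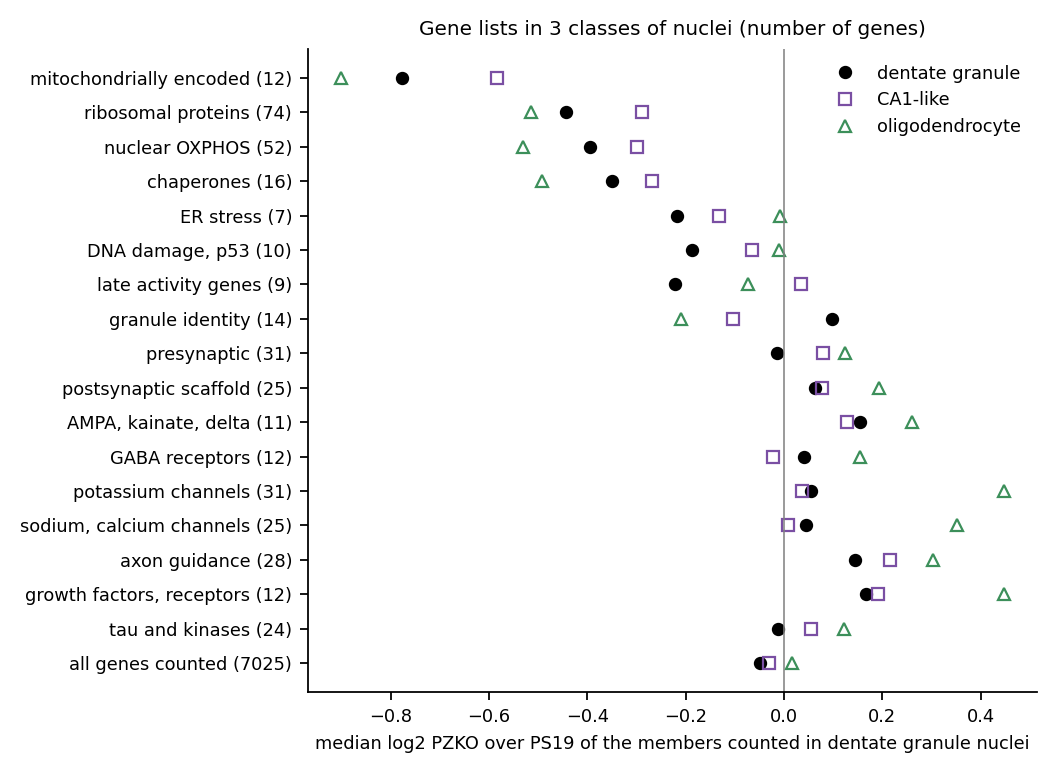
Median log2 ratio of PZKO over PS19 for gene lists, over the members counted in granule nuclei (their number in brackets), in dentate granule (black circles), CA1-like (purple squares) and oligodendrocyte nuclei (green triangles) of 1 library per genotype. Mitochondrially encoded genes, ribosomal proteins, nuclear OXPHOS genes and chaperones lie left of 0 in all 3 classes, and lists of receptors and channels lie within 0.2 of 0 in granule nuclei.

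Of the granule cell genes not used by the rule, 14 of 16 were counted, with a median of 0.10. Of these 14, 1 was at least 1.5-fold lower, against 2.95% of all genes, and none at least 1.5-fold higher, a count near the background. It was *C1ql3* (chr2:13003457-13011806), a paralogue of *C1ql2* that is likewise secreted from mossy fibre terminals and helps cluster kainate receptors. It had 4800 UMIs in 425 of 437 PS19 nuclei and 2170 UMIs in 213 of 220 PZKO nuclei. These correspond to 727 and 476 CPM, a log2 ratio of -0.61 (-0.68 to -0.54), and no small set of nuclei held it, with 5.48% and 7.74% of the UMIs in 5 nuclei. In CA1-like nuclei it was at -0.31 (-0.39 to -0.23). *C1ql2*, a gene of the rule, had 362 and 126 UMIs at -0.99 (-1.29 to -0.69) and was at -1.19 in CA1-like nuclei. *Cdh9* was at -0.09, *Glis3*, *Dock10*, *Stxbp6* and *Smoc2* between 0.10 and 0.18.

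Of 34 listed presynaptic genes 31 were counted, *C1ql2* among them, with a median of -0.01, 13 above 0 and 18 below. At least 1.5-fold lower were 3, against 2.95% of all genes, and none was at least 1.5-fold higher. Beside *C1ql2*, a gene of the rule, these were *C1ql3* and *Rab3a*, a vesicle GTPase of mossy fibre plasticity, at -0.87 (-1.20 to -0.55). *Slc17a7*, the vesicular glutamate transporter, stood at 227 and 223 CPM, but the rule used it as an excitatory gene, so its level is partly set by that choice. *Slc30a3*, the transporter that fills mossy fibre vesicles with zinc, was at -0.27 (-0.56 to 0.02), *Syt7*, a calcium sensor of facilitation, at 0.04, and *Synpr*, a vesicle protein of mossy fibres, at 0.08. Postsynaptic scaffold genes had a median of 0.06 over 25 of 26 counted, with *Homer2* alone past 1.5-fold at 0.64 (0.29 to 0.98), against 0.769% of all genes higher by that much. *Homer2* was at 0.00 in CA1-like nuclei.

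Glutamate and GABA receptor genes are given by their medians, beside -0.05 over all genes. All 11 AMPA, kainate and delta receptor genes were counted, none was past 1.5-fold and the median was 0.15. *Gria4*, an AMPA receptor subunit, was highest with 167 CPM in PS19 and 235 in PZKO (0.50, 0.38 to 0.62), and *Grik4*, the high-affinity kainate subunit that assembles at mossy fibre synapses, lowest with 356 and 298 (-0.26, -0.35 to -0.16). Of 7 NMDA receptor genes 4 were counted, with *Grin2a* at 0.24 (0.21 to 0.28) in granule and -0.01 in CA1-like nuclei. Metabotropic receptors had a median of 0.07 over 6 of 8, with *Grm3* at 0.56, and GABA receptors a median of 0.04 over 12 of 14. No member of these lists was past 1.5-fold, but few of all genes were (0.769% higher and 2.95% lower), so that count is near the background.

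Of ion channel, guidance and growth factor genes, at most 1 in each list was past 1.5-fold, to be set against 0.769% of all genes higher and 2.95% lower, and nothing is read from these counts. Potassium channel genes had a median of 0.05 over 31 of 35, with *Kcnq5* the only one past 1.5-fold. Sodium and calcium channel genes had a median of 0.04 over 25 of 29, with 1 at least 1.5-fold lower. Axon guidance genes had a median of 0.14 over 28 of 40 and none past 1.5-fold. The netrin receptor gene *Unc5d* was highest, at 0.57 (0.49 to 0.65) in granule and 0.58 in CA1-like nuclei. Cadherin genes had a median of 0.15 over 15 of 20, with *Pcdh15* at 1.67 and 62.4% of its PZKO UMIs in 5 nuclei. Growth factors and their receptors had a median of 0.17 over 12 of 14, with the neuregulin receptor gene *Erbb4* at -0.76 and 75.5% of its PS19 UMIs in 5 nuclei.

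The RNA level of the mouse tau gene *Mapt* was close in granule nuclei of both libraries, which says nothing about tau protein. *Mapt* stood at 335 CPM in PS19 and 322 in PZKO, a ratio of -0.05 (-0.15 to 0.04). *Prnp*, the prion protein gene whose promoter drives the transgene, stood at 260 and 181 CPM, at -0.52 (-0.65 to -0.40), and at -0.33 in CA1-like nuclei. Whether reads of the transgene were counted under either gene was not tested. Of 27 genes of tau, its kinases and phosphatases 24 were counted, with a median of -0.01. The most abundant of them, *Camk2a*, is an excitatory gene that the rule used to choose the nuclei. Of these 24, *Cdk5r1*, which encodes the p35 activator of CDK5, was alone past 1.5-fold, at -0.63 (-0.92 to -0.35) with 330 and 147 UMIs, and 1 lower gene in 24 is near the 2.95% of all genes.

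Activity-regulated transcripts were sparse in granule nuclei, and most could not be compared. Of 18 immediate early genes only *Jun* and *Btg2* had 200 UMIs, both at -0.77. *Jun* had 507 and 205 UMIs and was at -0.73 in CA1-like nuclei, while *Btg2*, an antiproliferative gene, had 175 and 71 UMIs and was at 0.21 (-0.04 to 0.46) there. *Fos* had 13 and 8 UMIs, *Arc* 18 and 18, *Npas4* 5 and 7, *Egr3* 103 and 46 and *Egr4* 18 and 1. After thinning to 3000 UMIs, 3.43% (1.93 to 5.60) of PS19 and 6.82% (3.87 to 10.996) of PZKO granule nuclei held a UMI of *Fos*, *Arc*, *Npas4*, *Egr1* or *Nr4a1*, against 13.7% and 22.3% before thinning. Oligodendrocyte nuclei, which have shallower medians of 4352 and 5237.5 UMIs, gave 9.42% and 10.0% after the same thinning, so the granule shares were no higher than in a class of glia and no difference is read from them. CA1-like nuclei gave 23.5% and 27.9%. For any of the 18 genes the thinned shares ran the other way, at 40.0% (35.4 to 44.8) of PS19 and 29.5% (23.6 to 36.05) of PZKO granule nuclei, against 26.3% and 27.2% of oligodendrocyte and 45.8% and 49.0% of CA1-like nuclei. Before thinning they were 85.4% and 80.9% in granule nuclei.

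Among 17 slower activity genes, 9 were counted with a median of -0.22, which became 0.09 after thinning, and the same genes had a median of 0.03 in CA1-like nuclei. *Spry2*, a feedback inhibitor of receptor tyrosine kinase signalling, had 244 and 77 UMIs at -1.13 (-1.52 to -0.75) and was at -0.48 in CA1-like nuclei. *Sorcs3*, a sorting receptor (chr19:48206025-48805505), had 961 and 382 UMIs at -0.79 (-0.97 to -0.62) and was at 0.09 in CA1-like nuclei, with 40.1% of the PS19 UMIs in 5 nuclei. *Bdnf*, the neurotrophin that granule cells place in mossy fibres, was at -0.15 (-0.34 to 0.04) with 612 and 380 UMIs. Of the 7 genes of immature granule cells, *Neurod1* (194 and 81 UMIs) and *Sox11* (207 and 110 UMIs) were counted, at -0.72 (-1.12 to -0.34) and -0.38 (-0.72 to -0.04).

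Genes that the study discusses for its excitatory neurons were examined in granule nuclei on their own. They were selected on these same libraries and are not independent evidence of a direction. Of 20 synaptic and activity genes 9 were counted, all above 0 with a median of 0.39, and 1 was at least 1.5-fold higher (0.769% of all genes), against a median of 0.30 for the same genes in CA1-like nuclei. The glutamate receptor genes *Gria4* and *Grik3* were at 0.50 and 0.47 and the kinase gene *Camk2d* at 0.39 (0.17 to 0.61). With the ambient profile subtracted, the median was 0.08. Of 14 genes of metabolism, stress and secreted proteins 13 were counted, all below 0 with a median of -0.78, and 12 were at least 1.5-fold lower (2.95% of all genes). Their medians were -0.69 in CA1-like and -0.86 in oligodendrocyte nuclei.

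Interferon-stimulated genes were higher in PZKO granule nuclei when summed. The 22 genes of this list in the matrix had 870 UMIs in PS19 and 935 in PZKO, 131.7 and 205.3 CPM, a log2 ratio of 0.64 (0.51 to 0.78). CA1-like nuclei stood higher and level at 269.9 and 259.1 CPM. The members differed among themselves. Of the 22 genes 2 had 200 UMIs, and both were at least 1.5-fold higher, against 0.769% of all genes compared. *Stat2*, a transcription factor that carries the interferon signal to the nucleus (chr10:128270559-128292849), had 184 and 197 UMIs at 0.63 (0.34 to 0.93), and it was at -0.01 in CA1-like nuclei.

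Below the minimum, counts were few. Over the whole list 13 of the 22 ratios were above 0 and 9 below, where 41.1% of all genes compared were above 0. *Ifit1*, an antiviral RNA-binding protein, had 31 and 55 UMIs, *Rnf213*, a large ubiquitin ligase, 32 and 74, *Ddx58*, which encodes the RNA sensor RIG-I, 12 and 35, and *Usp18*, the protease that removes ISG15, 4 and 23. Of the PZKO UMIs, 49 of 74 for *Rnf213* and 29 of 55 for *Ifit1* came from the 5 nuclei richest in the list. Among members with fewer UMIs in PZKO, *Ifit3* had 10 and 1, *Ifit2* 12 and 5 and *Trim30a* 11 and 5. *B2m*, the light chain of MHC class I, had 102 and 62 UMIs at -0.18 (-0.66 to 0.29), and *H2-D1*, a class I heavy chain, 69 and 29 at -0.71 (-1.39 to -0.07).

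A few nuclei held much of the difference. The PZKO granule nuclei richest in these transcripts had 82, 61, 39, 38 and 36 UMIs of 11 to 13 of the genes, while the richest PS19 nucleus had 16 UMIs. The granule sums of the first 3 of these PZKO nuclei were 8.49, 8.82 and 8.76, close to the threshold of 8, and the sums of other granule genes in all 5 were 49.8 to 69.0, below the PZKO median of 70.1. With the 5 richest nuclei of each library left out, the summed levels were 123.3 and 153.6 CPM and the ratio 0.32 (0.17 to 0.47). This cut is unequal, since 5 nuclei are a larger part of the 220 PZKO than of the 437 PS19 granule nuclei. By a cut set after the values were seen, at least 5 of the genes and at least 10 UMIs of them per 10000, 2 of 437 PS19 (0.458%, 0.0555 to 1.64) and 8 of 220 PZKO granule nuclei (3.64%, 1.58 to 7.04) were rich in them. CA1-like nuclei gave 6.34% and 7.48%. After thinning to 3000 UMIs, 1.60% and 4.09% of granule nuclei held at least 3 such UMIs, against 9.44% and 10.6% of CA1-like nuclei. The thinned shares with any such UMI were closer, at 32.3% (27.9 to 36.9) of PS19 and 35.5% (29.1 to 42.2) of PZKO granule nuclei, with overlapping intervals.

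**Figure D5:**
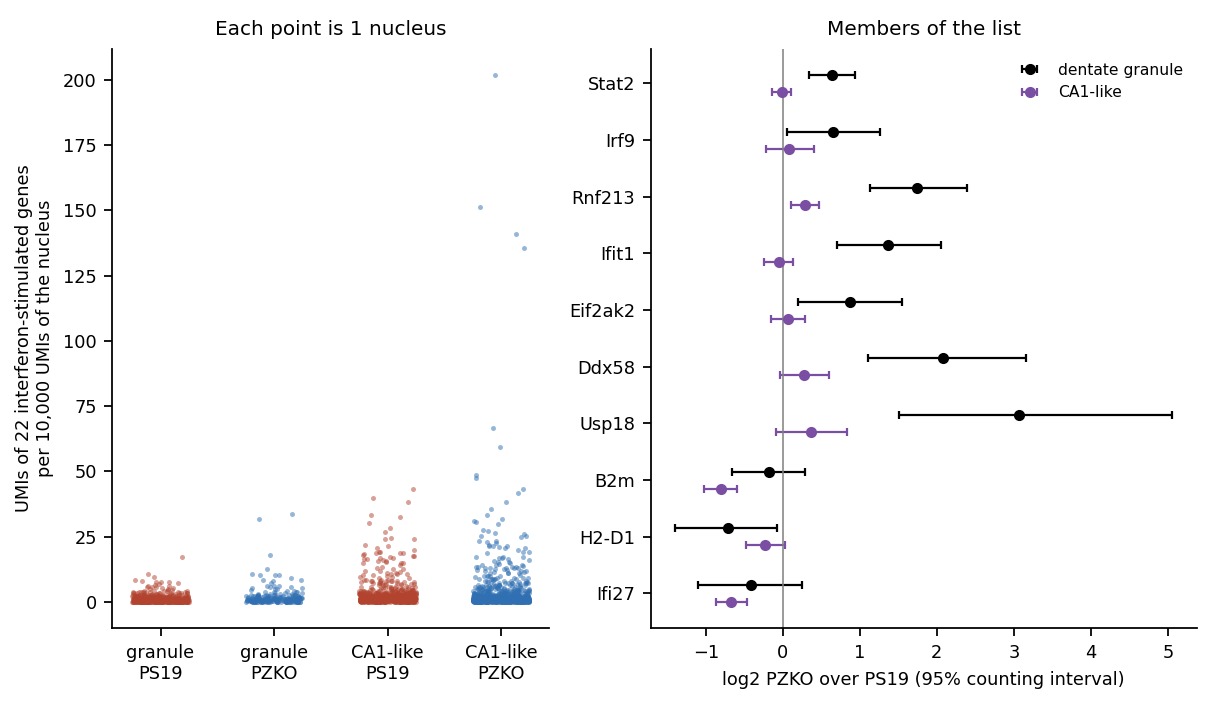
Left, UMIs of 22 interferon-stimulated genes per 10000 UMIs in each dentate granule and CA1-like nucleus of PS19 (red) and PZKO (blue). Right, log2 ratio of PZKO over PS19 for 10 members in summed granule (black) and CA1-like nuclei (purple) with 95% counting intervals. Granule points for *Stat2*, *Rnf213* and *Ifit1* lie right of 0, those for *B2m* and *H2-D1* left of 0, and a few PZKO granule nuclei stand above the rest.

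The promoters of these genes are shown because interferon acts through short elements in them. The 250 bases before the start site were searched on both strands for GAAANNGAAA, the core of the interferon-stimulated response element, in sequences from RefSeq on GRCm38.p6. Of the 23 listed genes 18 had an entry, and 7 of these held a match (*Ifit1*, *Ifit3*, *Isg15*, *Stat2*, *Trim30a*, *B2m* and *Bst2*), against 3.46% of 27025 genes. The gamma-activated element TTCNNNGAA was found in 3 of the 18, against 8.13% of genes, and only *Bst2* held both. Windows around the matches follow for a gene with a higher level in PZKO granule nuclei (*Ifit1*), for *Stat2* and for *B2m*, with matches in capitals on the strand of the gene.
Ifit1, chr19:34640760-34640838, plus strand: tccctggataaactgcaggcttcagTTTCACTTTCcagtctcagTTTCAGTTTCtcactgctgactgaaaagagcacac
Stat2, chr10:128270251-128270310, plus strand: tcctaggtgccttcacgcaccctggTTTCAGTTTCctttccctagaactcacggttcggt
B2m, chr2:122147523-122147582, plus strand: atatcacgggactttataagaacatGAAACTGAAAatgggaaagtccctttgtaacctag
The *Ifit1* window holds 2 matches and the others 1 each. A match was thus present both in genes with a ratio above 0 and in *B2m*, whose interval spanned 0, and it marks letters only.

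Markers of other cell types were present in granule nuclei at different levels. The 8 inhibitory markers summed to 1774 CPM in PS19 and 1807 in PZKO, mostly *Adarb2*, against 92.0 and 61.9 in CA1-like nuclei, and the 5 CA3 markers to 262 and 314 in granule nuclei, mostly *Cpne4*. The summed level of 7 oligodendrocyte markers was 448 CPM in PS19 and 402 in PZKO, with *St18* the most abundant. The rule itself bounded *St18* with *Prr5l*, so this sum is a description and partly set by that choice. The 6 astrocyte markers summed to 340 and 330, mostly *Slc1a2*. Microglial markers summed to 64.9 and 47.0 CPM, with *C1qa* the most abundant in PS19. The 5 CA1 markers summed to 21.2 and 25.7 in granule nuclei, and the 7 mossy cell markers to 30.6 and 27.0. The 4 Cajal-Retzius markers summed to 15.1 and 55.1, with *Reln* the most abundant. From 41 markers of glia, vessels and choroid plexus, a share of UMIs from free RNA was computed as 20.2% in PS19 and 20.4% in PZKO granule nuclei. It is their level in granule nuclei divided by their level over all barcodes, glia included. Every marker UMI is counted as free RNA, and whether granule nuclei or doublets supplied some of them was not tested, so the share is rough. With the ambient profile subtracted, the mitochondrially encoded median was -0.73 and the ribosomal one -0.41.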

How the data were processed

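The authors counted UMIs per gene and nucleus from 10x Genomics 3′ libraries on mm10, and the counts deposited by the authors are whole numbers without normalization. Their processing notes name Cell Ranger 7.0.1 and Seurat, while the header of both matrices names Cell Ranger 8.0.1. Corrections for ambient RNA and doublets in the study's methods are not part of the deposited counts, and doublets were not removed here except in an alternative. Labels state that hippocampi were processed separately and also that each library is pooled. Members, gene lists and the rule for naming genes were chosen with earlier results of these data known.

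Members were selected in both matrices by the rule in the report. For each library, UMIs were added up over the members and scaled to 1000000 (CPM). Ratios are PZKO over PS19 on the log2 scale, with exact conditional 95% intervals after Clopper and Pearson, and shares have exact intervals of the same kind. Past the fold means a ratio of at least 1.5, and genes with under 200 UMIs in the sum of both libraries entered no count or median. With 1 library per genotype no p-value was computed. Other excitatory nuclei (2768 in PS19 and 3390 in PZKO) and CA1-like nuclei had a granule sum under 8 per 10000 UMIs, and CA1-like nuclei also had more UMIs of CA1 than of CA3 marker genes. Oligodendrocyte nuclei had *St18* and *Prr5l* at 10 or more per 10000 UMIs and fewer than 3 UMIs of the excitatory genes. A class of CA3-like nuclei was not compared, because *Cpne4*, one of its markers, stood at 244 and 289 CPM in granule nuclei.

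Genes named are the rule's genes and given markers, the 15 highest and 5 lowest against other excitatory nuclei, the 12 highest and 12 lowest in PZKO over PS19 by the interval end nearest to 0, the 8 in each direction that differ most from other excitatory nuclei, *Zbp1*, *Mapt* and *Prnp*, and members of the lists described. Not every such gene is described, and the values of some single genes are not reported here, while counts, sums and medians include them. Positions are from GENCODE M21 (GRCm38), which covers 32235 of 32285 genes. Of the alternative settings, 16 were set at the outset and 3 were added after the data had been seen, as were the use of CA1-like nuclei as a second reference and the sum without the 5 nuclei richest in interferon-stimulated transcripts. Software was Python 3.11.15, numpy 2.4.6, scipy 1.17.1, pandas 2.3.3, scanpy 1.11.5 (Scrublet), R 4.3.3, edgeR 4.0.16 and DESeq2 1.42.0, the last pair for scaling only.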

Additional observations from a re-analysis of the deposited data

Results flagged for a closer look

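Flagged here are 8 genes whose ratio of PZKO over PS19 lay on opposite sides of 0 in granule nuclei and in a reference class of the same libraries. They are not all such genes, since *Stat2* and *Grin2a*, given above, also lay on opposite sides in granule and CA1-like nuclei. These differences were not tested, since each genotype is 1 library. *Kitl*, which encodes the ligand of the receptor KIT, was at -0.62 in granule and 0.77 in CA1-like nuclei, a difference of -1.39, and its difference from all other excitatory nuclei was -1.30. *Sorcs3* was at -0.79 and 0.09, with differences of -0.89 from CA1-like and -1.14 from other excitatory nuclei. *Car10*, a carbonic anhydrase-related protein, was at -0.14 and 0.65, with differences of -0.79 and -0.55. *Plpp4*, a phospholipid phosphatase, was at -0.47 in granule and 1.31 in CA1-like nuclei (difference -1.78), and *Kcng1*, a modulatory potassium channel subunit, at -0.34 and 0.90 (difference -1.23). *Btg2* was at -0.77 in granule and 0.19 in other excitatory nuclei (difference -0.96), and in CA1-like nuclei it was at 0.21 (-0.04 to 0.46).

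*Gm34567* and *Il16* were higher in granule nuclei and lower in other excitatory nuclei, with differences of 1.03 and 1.06. Both are enriched in granule nuclei, and the other excitatory nuclei held 522 PS19 and 287 PZKO nuclei with other granule genes. In CA1-like nuclei their ratios were 0.29 and 0.05, on the same side of 0 as in granule nuclei (0.22 and 0.33).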

How the results depend on the processing

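The share of granule nuclei kept its order under all 10 settings, with PS19 over PZKO at 1.88 to 2.46 among all barcodes and 2.09 to 2.61 among excitatory nuclei. Counts of genes past 1.5-fold moved with the setting. The 54 higher genes became 112 with a granule sum of at least 5, 24 with a sum of at least 12 and 112 after thinning to 3000 UMIs, and the 207 lower genes became 51 with a sum of at least 12 and 128 with at most 1% mitochondrial UMIs. With a minimum of 100 UMIs per gene the counts were 104 higher and 469 lower, with 500 UMIs 13 and 75, with no minimum 1477 and 2598, and at 2-fold 12 and 22. TMM (edgeR) gave 75 and 150 and DESeq2 size factors 77 and 146, so the share of higher calls moved with the scaling. Fewer nuclei or fewer genes enter the stricter settings by construction, and the cause of the other shifts was not tested.

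All medians named here kept their sign except where stated. For mitochondrially encoded genes the median was -0.44 with at most 1% mitochondrial UMIs, -0.71 with a sum of at least 5, -0.62 with at least 12, -0.66 in the wider set (a sum of at least 2 and other granule genes at 30 or more) and -0.71 with TMM and with DESeq2. For ribosomal proteins it was -0.30 at 1% mitochondrial UMIs, -0.39 at a sum of 12 and -0.38 with either scaling. For nuclear oxidative phosphorylation it was -0.32 at 1%, -0.50 at a sum of 12, -0.33 thinned, -0.33 with either scaling and -0.34 at 500 UMIs. The list of 20 synaptic and activity genes had 0.30 at 1%, 0.14 at a sum of 12, 0.57 thinned, 0.20 in the wider set, 0.26 in members with other granule genes at 30 or more, 0.077 with the ambient profile subtracted, 0.21 at 500 UMIs and 0.49 with no minimum. The list of 14 genes had -0.67 at 1%, -0.90 at a sum of 12 and -0.69 in the wider set. The immediate early median became 0.056 with no minimum. Slower activity genes went from -0.22 to 0.09 after thinning, and some medians within 0.2 of 0 changed sign under some settings.

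Some genes held by few nuclei changed direction. *Nxph1*, at 1.06, became -3.21 at a sum of 12, -0.11 thinned and -0.039 in the wider set. *Tmtc2*, at 1.12, became -0.29 at a sum of 12, *Reln* -1.60 at a sum of 12 and -0.30 thinned, and *Htr2c* 1.28 at a sum of 12 and 1.98 without the highest Scrublet scores. *Dpp10*, *Pcdh15*, *Ldb2* and *Kcnq5*, also held by few nuclei, kept theirs in the 17 settings that gave them a value. *Gm17167*, *Ttr* and *Bc1* had a value in all 18 settings and kept their direction in each. For the genes with 17 settings, the direction in the remaining setting is not known. No paired analysis was possible because each genotype is 1 library. With 1 library per genotype, neither the spread between mice nor a difference in dissection can be separated from the genotype, and genes under 200 UMIs, among them most immediate early and interferon-stimulated genes, could not be read with precision at this depth.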
